A study of Mus musculus with 48 samples.

Results

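The genes examined here make, load or clear the main fast transmitters of the cortex. They are the vesicular glutamate transporters Slc17a7 (VGLUT1), Slc17a6 (VGLUT2) and Slc17a8 (VGLUT3), the vesicular GABA transporter Slc32a1 (VGAT), the GABA-synthesizing enzymes Gad1 (GAD67) and Gad2 (GAD65), and the plasma membrane GABA transporter Slc6a11 (GAT3). They were taken by symbol, each symbol mapping to 1 Ensembl identifier, and they are 7 of the 48526 genes in the count table. All 7 passed the filter on low counts in every comparison. The question was how transcripts of excitatory and inhibitory transmission are distributed between whole cortex and isolated nerve endings, in total RNA and in ribosome pellets, and with age.

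Cortices came from 12 male wild-type C57BL/6JRj mice, 4 at 3 weeks (3w), 4 at 5 months (5m; the sample labels give 6 months) and 4 at 18 months (18m; 18 or 19 months in the protocol). Each mouse gave 4 libraries. Total homogenate (TH) and synaptosomes (SYN), the resealed nerve endings isolated on a sucrose gradient, were each sequenced as input RNA (input_TH, input_SYN) and as the ribosome pellet spun through a sucrose cushion with cycloheximide (SC_TH, SC_SYN). No group carried a transgene or a treatment. Libraries held 1780267 to 18590040 counts, with the lowest totals in input_SYN (1780267 to 7879536) and with SC_TH shallower at 3w (3058278 to 7119395) than at 18m (9612408 to 15423546). Slc17a8 was the sparsest of the genes, at 7 to 95 counts per library. These are bulk samples, so fewer cells of a type and less RNA per cell cannot be told apart.

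Glutamatergic terminals fill their vesicles through a VGLUT, a multi-pass membrane protein driven by the proton gradient of the vesicle. Slc17a7 is the principal form of cortical pyramidal cells, Slc17a6 is best known from thalamic and other subcortical projections, and Slc17a8 is found in a minority of neurons, many of which use another transmitter as well. GABAergic neurons make their transmitter from glutamate with the soluble or membrane-attached enzymes GAD67 and GAD65 and load it with VGAT, which has no close relative among the VGLUTs. GAT3 takes GABA back up from the extracellular space and is chiefly an astrocyte protein in cortex. Membrane transporters are translated on the rough endoplasmic reticulum, whereas both GADs are made on free ribosomes in the cytosol.

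On GRCm38 with the GENCODE annotation, Slc17a7 (ENSMUSG00000070570) lies at chr7:45163949-45176142 and Slc17a6 (ENSMUSG00000030500) at chr7:51622006-51671119, both on the plus strand. Slc17a8 (ENSMUSG00000019935) lies at chr10:89574020-89621253 on the minus strand. The GABA genes are all on the plus strand, with Slc32a1 (ENSMUSG00000037771) at chr2:158610767-158615748, Gad1 (ENSMUSG00000070880) at chr2:70553072-70602014, Gad2 (ENSMUSG00000026787) at chr2:22622205-22693874 and Slc6a11 (ENSMUSG00000030307) at chr6:114131241-114249952. Each is protein-coding, and reads over its exons were counted. Slc32a1 shares 697 exonic bases with the antisense gene Gm14205, and since the counting did not use strand, reads of the pair cannot be told apart where they overlap. Gm14205 itself was given 143 counts in all 48 libraries together. Since 697 of its own 739 exonic bases are the shared ones, this count says little about reads in the overlap.

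The paralogs are shown at the longest stretch that their coding sequences share, because the comparisons below rest on telling them apart. Capitals mark the bases that differ between the 2 members of a pair, and positions are counted from 1 at the first base of the coding sequence.
Slc17a7, 214 to 294: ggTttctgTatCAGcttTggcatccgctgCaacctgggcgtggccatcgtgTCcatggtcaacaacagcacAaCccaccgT
Slc17a6, 238 to 318: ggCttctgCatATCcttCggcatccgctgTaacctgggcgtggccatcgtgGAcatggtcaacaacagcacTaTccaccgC
Gad1, 1174 to 1250: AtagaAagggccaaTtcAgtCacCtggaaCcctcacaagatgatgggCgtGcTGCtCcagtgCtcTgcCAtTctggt
Gad2, 1150 to 1226: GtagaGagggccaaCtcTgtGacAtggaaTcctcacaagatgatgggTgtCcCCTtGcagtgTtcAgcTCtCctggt
Slc17a7 and Slc17a6 were identical at 71.29% of 1679 aligned coding bases, and their longest shared run was 21 bases. Gad1 and Gad2 were identical at 65.2% of 1750, with a longest run of 17. Reads were several times longer than these runs, and no window of read length in a VGLUT gene, in Gad2 or in Slc6a11 occurred in another gene. For Gad1, 0.091% of windows occurred elsewhere, in a processed pseudogene.

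Levels are given as CPM, the counts of a gene scaled to a common library total with TMM factors, and are compared between genes per kilobase (kb) of exonic length. On that scale Slc17a7 was the highest and Slc17a8 the lowest of the 7 genes in all 12 groups. In SC_SYN at 5m, Slc17a7 stood at 628 ± 60.4 CPM per kb (mean ± SD, n = 4), above Slc32a1 at 103 ± 11.3, Slc6a11 at 64.4 ± 8.38 and Gad1 at 20.4 ± 0.916. Gad2 at 12.4 ± 1.88 and Slc17a6 at 11.3 ± 1.58 overlapped in their libraries, and Slc17a8 followed at 1.37 ± 0.362. In these SYN pellets the GABA transporters therefore ranked above the GABA-synthesizing enzymes. In input_TH at 5m the order was different, with Gad1 second at 23.5 ± 1.42 CPM per kb, ahead of Slc32a1 at 18.2 ± 0.969 and Gad2 at 17.8 ± 1.60, whose libraries overlapped. Slc6a11 came next at 15.4 ± 0.302, and the minor VGLUTs were low, Slc17a6 at 2.98 ± 0.300 and Slc17a8 at 0.445 ± 0.0858. In SC_TH at 5m, Slc32a1, Gad1, Slc6a11 and Gad2 ran from 39.1 ± 4.47 down to 23.2 ± 2.13 CPM per kb, and each overlapped its neighbour in that order. The order depends on exonic length, taken over all annotated exons, which was 7639 bases for Gad1. In CPM not divided by length, Gad1 stood at 247 ± 39.8 and Slc32a1 at 109 ± 12.5 in that group. The values of Slc32a1 use its full exonic length of 2797 bases, 697 of them shared with Gm14205. They are too low if reads there were not counted, so its place behind Gad1 in input_TH is uncertain.

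**Figure D1:**
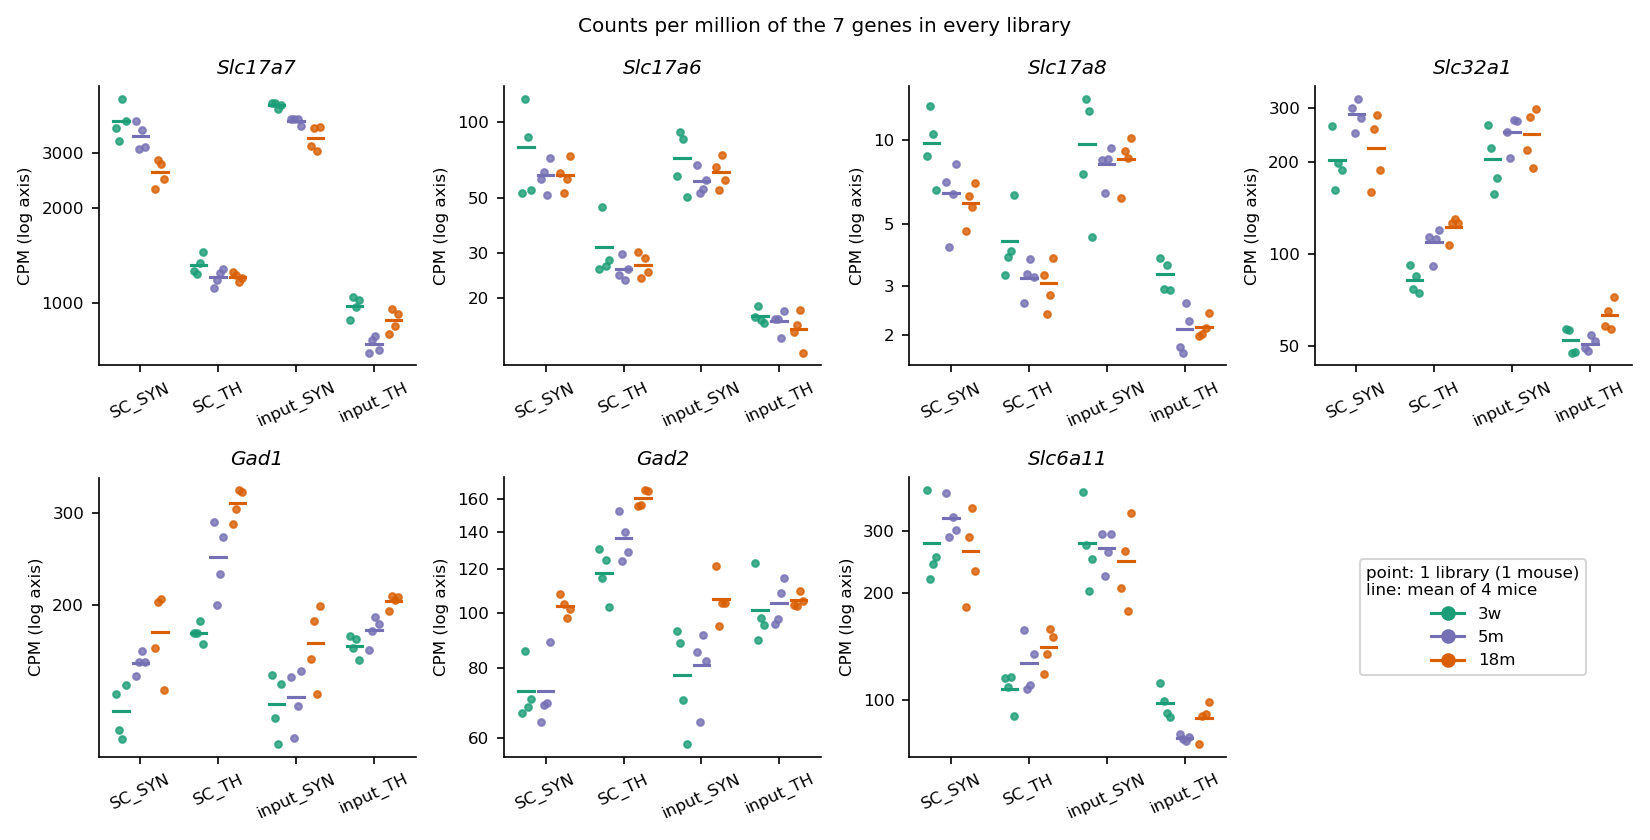
TMM-scaled CPM (log axis) of each gene in every library, by fraction on the horizontal axis and by age in colour; each point is 1 library of 1 mouse and each short line the mean of 4. The points of the 5 transporter genes sit higher in both SYN fractions than in the matching TH fraction, whereas those of Gad1 and Gad2 in SC_SYN sit below SC_TH at every age.

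SC_SYN was first set against SC_TH, which asks which transcripts are at a higher level in the SYN pellet than in the TH pellet. The comparison takes no account of input levels, and the pellets also held glial and nuclear RNAs, as given below. The transporters were higher, those of glutamate and of GABA alike, and the GABA-synthesizing enzymes were lower. All 5 transporter genes passed the edgeR test as higher in SC_SYN at each age, with log2 fold changes of 0.89 to 1.56. Gad1 and Gad2 both passed as lower at each age, with log2 fold changes of -0.88 to -0.44. Over all 16630 genes tested, 31.1%, 32.1% and 29.9% were called higher at 3w, 5m and 18m, and 32.4%, 35.8% and 32.2% lower, so a call in either direction was common in this comparison. At 5m the log2 fold change of Slc17a7 stood at percentile 94.8 of all protein-coding genes tested. That of Slc32a1 stood at 92.4, Slc6a11 at 91.3, Slc17a6 at 88.3 and Slc17a8 at 81.6. Gad1 was at 19.7 and Gad2 at 11.2.

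Slc17a7, the main cortical VGLUT, measured 3773, 3096, 3538 and 3140.0 CPM in the 4 SC_SYN libraries at 5m, against 1115, 1185, 1251 and 1282 CPM in SC_TH of the same mice. Every SC_SYN library was above every SC_TH library, a fold of 2.85 (log2 fold change 1.51 ± 0.095 (SE), adjusted p = 1.13e-12). At 3w the values were 3605, 3268, 4457 and 3779.9 CPM against 1266, 1237, 1346 and 1449 CPM. At 18m they were 2307, 2839, 2771 and 2480.4 CPM against 1252, 1227, 1168 and 1200.4 CPM, again without overlap. The log2 fold changes at these ages were 1.56 ± 0.095 and 1.13 ± 0.094 (SE).

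The other VGLUTs were higher in SC_SYN too, from lower levels. Slc17a6 ranged from 51.1 to 123 CPM over the 12 SC_SYN libraries and from 23.6 to 45.8 CPM over SC_TH, with log2 fold changes of 1.36 ± 0.21 at 3w, 1.27 ± 0.20 at 5m and 1.21 ± 0.20 at 18m (SE, largest adjusted p = 1.35e-05). Slc17a8 ranged from 4.14 to 13.2 CPM in SC_SYN and from 2.38 to 6.33 CPM in SC_TH, with log2 fold changes of 1.25 ± 0.24 at 3w, 1.05 ± 0.22 at 5m and 0.96 ± 0.22 at 18m (SE, largest adjusted p = 0.000463). Libraries did not overlap within an age for either gene.

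The GABA transporters were higher in SC_SYN as well. Slc32a1, which loads GABA into vesicles, measured 300.5, 249, 322 and 279 CPM in SC_SYN at 5m against 114, 91.2, 112 and 119.8 CPM in SC_TH, a fold of 2.66 (log2 fold change 1.41 ± 0.15 (SE), adjusted p = 1.45e-08). At 3w its values were 263, 162, 199 and 189 against 91.9, 77.0, 84.9 and 74.6 CPM, and at 18m 159.9, 256, 286 and 189 against 107, 126, 131 and 126 CPM, with log2 fold changes of 1.36 ± 0.16 and 0.89 ± 0.15 (SE). The lowest SC_SYN library was above the highest SC_TH library at each age. Slc6a11, which clears GABA, ranged from 182 to 391 CPM in SC_SYN and from 90.0 to 159 CPM in SC_TH, with log2 fold changes of 1.42 ± 0.19 at 3w, 1.37 ± 0.18 at 5m and 0.93 ± 0.18 at 18m (SE, largest adjusted p = 0.000108). Each of the 5 transporter genes was higher in SC_SYN than in SC_TH in 12 of 12 mice.

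The enzymes ran the other way. Gad1, which supplies most of the GABA in the neuron as a whole, measured 146, 156, 164 and 156 CPM in SC_SYN at 5m and 288, 199.8, 229.8 and 269.7 CPM in SC_TH, 1.57-fold lower in SC_SYN (log2 fold change -0.65 ± 0.12 (SE), adjusted p = 5.02e-05). At 3w the values were 136, 115, 111 and 141 CPM against 177, 177, 187 and 168 CPM. At 18m they were 166, 203, 206 and 138 CPM against 286, 305, 331 and 329 CPM. The groups were apart at all 3 ages, with log2 fold changes of -0.44 ± 0.12 at 3w and -0.78 ± 0.12 at 18m (SE). Gad2, whose protein is anchored at the synaptic vesicle, measured 64.0, 68.5, 69.3 and 88.8 CPM in SC_SYN at 5m and 152, 124, 139.6 and 129 CPM in SC_TH, 1.85-fold lower in SC_SYN (log2 fold change -0.88 ± 0.11 (SE), adjusted p = 6.59e-08). Its log2 fold changes at 3w and 18m were -0.66 ± 0.11 and -0.61 ± 0.10 (SE). Both enzymes were lower in SC_SYN in 12 of 12 mice, and no library of one compartment reached into the range of the other within an age.

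In the input RNA, before the sucrose cushion, the transporters were again higher and the enzymes mostly lower. Compared with the pellets, input log2 fold changes were larger for the transporters and smaller for the enzymes, a difference that was not tested. Here 20 of 21 tests passed, beside a background of 31.7%, 32.6% and 32.9% of 17860 genes called higher in SYN and 39.3%, 40.1% and 39.4% called lower at 3w, 5m and 18m. Slc17a7 measured 3851, 3840.3, 3855 and 3646 CPM in input_SYN at 5m against 697, 765, 785 and 712 CPM in input_TH, a fold of 5.15 (log2 fold change 2.37 ± 0.077 (SE), adjusted p = 6.19e-20). Slc32a1 measured 251, 207, 275 and 272 CPM against 49.3, 48.3, 54.3 and 51.9 CPM, a fold of 4.95 (log2 fold change 2.31 ± 0.14 (SE), adjusted p = 2.22e-14). These excitatory and inhibitory vesicle transporters, apart in both cases without overlap, stood at percentiles 99.4 and 99.1 of the log2 fold changes of protein-coding genes. Log2 fold changes of Slc17a6 were 2.10 ± 0.15 at 3w, 1.87 ± 0.15 at 5m and 2.06 ± 0.14 at 18m, those of Slc17a8 1.59 ± 0.23 at 3w, 1.96 ± 0.25 at 5m and 2.01 ± 0.23 at 18m and those of Slc6a11 1.52 ± 0.16 at 3w, 1.79 ± 0.16 at 5m and 1.49 ± 0.16 at 18m (SE). All 5 were higher in input_SYN in 12 of 12 mice.

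The enzymes were mostly lower in input_SYN, with smaller log2 fold changes than in the pellets, a difference between library types that was not tested. Among protein-coding genes, Gad1 stood at percentiles 37.5, 36.0 and 39.1 and Gad2 at 37.9, 37.8 and 51.8 at 3w, 5m and 18m. The median log2 fold change of all genes was -0.18, -0.18 and -0.12 at these ages. Gad1 measured 146, 111, 128 and 150.0 CPM against 164, 179, 189.9 and 184 CPM at 5m, with log2 fold changes of -0.36 ± 0.11 at 3w, -0.41 ± 0.10 at 5m and -0.25 ± 0.10 at 18m (SE, largest adjusted p = 0.0278). It was lower in input_SYN in 12 of 12 mice, with libraries that overlapped at 18m. The call at 18m was lost without mouse 195 (log2 fold change -0.24, adjusted p = 0.0802) or mouse 197 (-0.16, adjusted p = 0.173). Gad2 measured 85.4, 64.0, 91.6 and 82.2 CPM against 95.7, 97.6, 109 and 115 CPM at 5m (log2 fold change -0.36 ± 0.12 (SE), adjusted p = 0.00902), and its log2 fold change was -0.35 ± 0.12 at 3w (SE, adjusted p = 0.0118). These calls were lost without mouse 190 at 3w (adjusted p = 0.0561) and without mouse 194 at 5m (adjusted p = 0.0503). Removing a GC and length trend ended the Gad1 calls at 3w and 18m and the Gad2 calls at 3w and 5m. At 18m Gad2 did not pass, at 121, 95.2, 104 and 104 CPM in input_SYN and 104, 103, 109.9 and 105 CPM in input_TH (log2 fold change 0.014, 95% interval -0.22 to 0.25, adjusted p = 0.922).

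**Figure D2:**
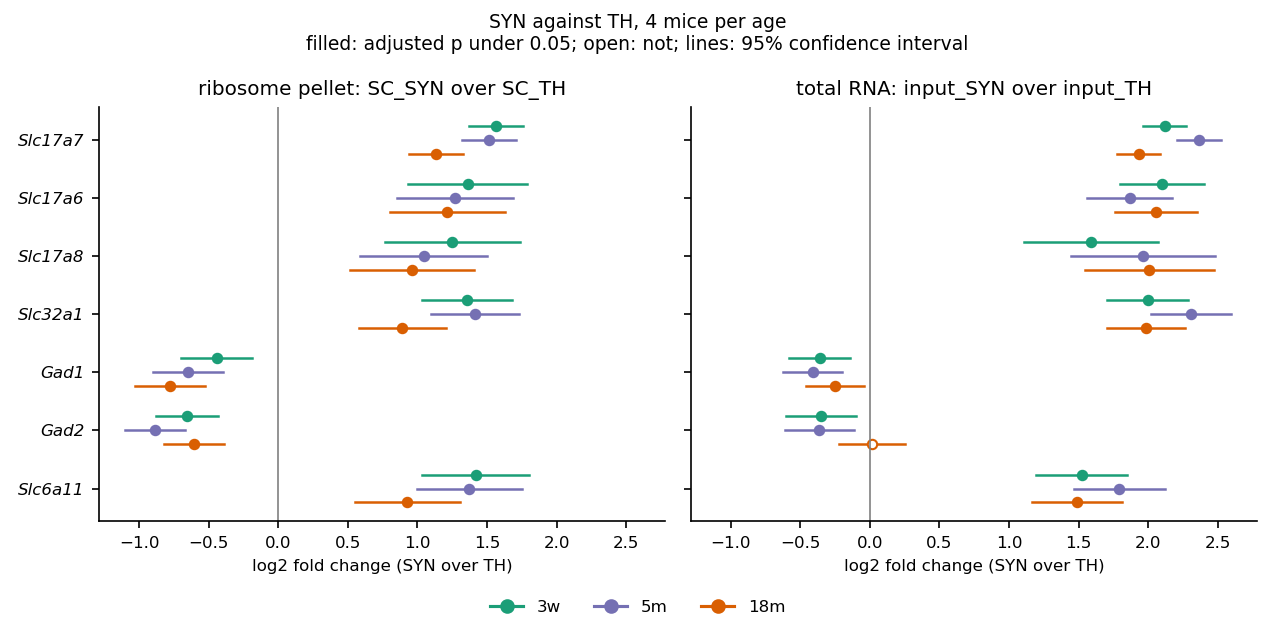
Log2 fold change of SYN over TH (horizontal axis) for each gene, in the ribosome pellets (left) and in input RNA (right), by age; points are edgeR estimates from 4 mice per age, lines 95% confidence intervals, and filled points passed an adjusted p of 0.05. The 5 transporters lie to the right of 0 at every age in both panels, Gad1 and Gad2 lie to the left in the pellets, and in the input only Gad2 at 18m, at 0.014, lies near 0.

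These fold changes are relative to TMM scaling, which takes most genes as equal between SYN and TH. Scaling by library size instead moved the median log2 fold change of all genes by -0.53 to -0.65. Of the calls in SC, 47.3% to 49.0% were higher under TMM and 20.5% to 25.4% under library size, and in the input 44.6% to 45.5% and 23.8% to 24.6%. No member that had passed changed direction. Slc17a8 lost its calls in SC at 5m (log2 fold change 0.46, adjusted p = 0.0612) and 18m (0.43, adjusted p = 0.0749), Slc6a11 lost its call in SC at 18m (0.40, adjusted p = 0.0508), and Gad2 in the input at 18m gained one as lower (-0.56, adjusted p = 5.40e-05).

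Ratios of 2 genes within a library need no scaling between libraries and show the excitatory and inhibitory members directly against each other. At 5m, there were 4.93 counts of Slc17a7 for each count of Gad1 in SC_TH and 21.7 in SC_SYN. For Slc17a7 over Slc32a1 the ratios were 11.1 and 11.8. The Slc17a7 ratio thus differed strongly between compartments over a synthesizing enzyme, and little over the vesicular transporter. Over Gad1 it sets a transporter against an enzyme, and among the GABA genes here the transporters and the enzymes ran in opposite directions. The ratio over Gad1 is therefore no measure of excitatory to inhibitory balance on its own. Over 11 pairs and both library types, 22 ratios were tested by an exact two-sided sign-flip permutation over 12 mice, whose smallest possible p is 0.000488, and 13 passed after adjustment.

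Each VGLUT over each GAD was higher in SYN than in TH in 12 of 12 mice, in pellets and input alike, and all 12 of these ratios had the adjusted p of 0.000895 that the smallest p gives. For Slc17a7 over Gad1 the SYN minus TH difference in log2 ratio was 2.02 ± 0.33 (SD, n = 12 mice) in the pellets and 2.50 ± 0.31 (SD, n = 12 mice) in the input. For Slc17a7 over Gad2 it was 2.11 ± 0.46 (SD, n = 12 mice) and 2.39 ± 0.41 (SD, n = 12 mice). Slc17a6 over Gad1 and over Gad2 gave means of 1.89 and 1.98 in the pellets, and Slc17a8, with fewer counts, 1.69 and 1.78.

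The VGLUT over VGAT ratios were close to 0 by comparison. Slc17a7 over Slc32a1 in the pellets was higher in SYN by 0.19 ± 0.20 (SD, n = 12 mice), in 9 of 12 mice (permutation adjusted p = 0.0116). In the input it differed by 0.069 ± 0.15 (SD, n = 12 mice), which did not pass (permutation adjusted p = 0.201) but did so without mouse 196 (0.094, permutation adjusted p = 0.0430). For Slc17a6 over Slc32a1 the differences of single mice ran from -0.52 to 0.95 in the pellets (permutation adjusted p = 0.684), and for Slc17a8 over Slc32a1 from -1.28 to 0.69 (permutation adjusted p = 0.47). Within a transmitter, Slc17a7 over Slc17a6 differed by 0.14 ± 0.31 (SD, n = 12 mice) in the pellets (permutation adjusted p = 0.221) and Gad1 over Gad2 by 0.091 ± 0.36 (SD, n = 12 mice) (permutation adjusted p = 0.451). With such spreads between mice, a difference between these VGLUTs, or between the GADs, was not detectable here, although Slc17a7 over Slc17a6 passed in libraries thinned to the smallest (0.27, permutation adjusted p = 0.0391).

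Other genes of transmitter handling were read from 4 lists: glutamate supply and uptake, GABA uptake and breakdown, other transmitters, and the vesicular proton pump that powers every vesicular transporter. Of the 13 glutamate genes, all tested, 9 were higher and 4 lower in SC_SYN at 5m, with a median log2 fold change of 0.98 beside -0.091 for all genes. Glul (1.88), the glutamine synthetase of astrocytes, and Glud1 (1.55), glutamate dehydrogenase, had the largest rises. Got1 (-0.50), a cytosolic aspartate aminotransferase, was among the falls. Of the 5 GABA genes 4 were tested, and 3 were higher and 0 lower with a median of 1.03, among them Abat (1.19), the mitochondrial enzyme that degrades GABA. Of the 17 genes of other transmitters 9 were tested, and 5 were higher and 2 lower with a median of 0.89. Slc30a3 (1.58), which loads zinc into glutamatergic vesicles, and Slc5a7 (1.51), the choline transporter, led the rises, and Chat (-1.12) and Th (-0.79), which make acetylcholine and catecholamines, were the falls. All 16 proton pump genes were tested, and 6 were higher and 6 lower with a median of -0.16.

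The counts of the lists in the pellets were read at the other ages too. At 3w, 9 glutamate genes were higher and 2 lower, 3 and 0 of the GABA genes, 4 and 0 of the other transmitters and 6 and 4 of the pump. At 18m the counts were 8 and 4, 3 and 0, 3 and 0, and 5 and 6. In the input at 5m, 8 glutamate genes were higher and 3 lower in SYN, 3 and 2 of 5 GABA genes, 4 and 1 of 10 genes of other transmitters, and 7 and 4 of the pump. Between ages fewer genes of the lists passed. From 3w to 5m, 1 of the 13 glutamate genes was higher and 0 lower in SC_SYN, and 5 were higher and 1 lower in SC_TH, while from 5m to 18m 0 genes of the 4 lists passed in either.

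Sorted by what the protein is, a grouping made after the values were seen and therefore given without a test, 12 of 13 tested transporters of these lists were higher in SC_SYN at 5m and 0 were lower. At 3w the counts were again 12 and 0, and at 18m 10 and 0. A further 8 listed transporters did not pass the filter. Of the 13 tested enzymes, 5 were higher and 6 lower at 5m, 4 and 2 at 3w, and 4 and 4 at 18m. The proton pump was divided as well in the pellets. Of the 5 subunits of its membrane sector, V0, 4 were higher and 0 lower at 5m, whereas of the 9 subunits of its cytosolic sector, V1, 0 were higher and 6 lower. At 3w the counts were 4 and 0 of V0 and 0 and 4 of V1, and at 18m 3 and 1 of V0 and 0 and 5 of V1. The V1 counts in the input were mixed, with 2 higher and 4 lower in SYN at 3w (median log2 fold change 0.19), 1 and 4 at 5m (median -0.14) and 4 and 3 at 18m (median 0.18). Both accessory subunits, the membrane proteins Atp6ap1 (1.81) and Atp6ap2 (1.78), were higher in SC_SYN at 5m, and Atp6v1g2 (-0.88) and Atp6v1b2 (-0.76) were the lowest of V1. Over the whole table, 79.4% of 214 tested Slc genes were higher in SC_SYN at 5m and 4.21% lower, beside 35.6% and 33.0% of 13624 protein-coding genes, leaving out the 7 genes here and the mitochondrial Slc25a family. With library size in place of TMM, these shares were 51.4% and 11.2% of Slc genes and 20.7% and 58.0% of protein-coding genes. Of the listed transporters 10 were then higher and 1 lower at 5m, Slc6a13 (GAT2) having changed direction. Of V0 3 were higher and 1 lower, of V1 0 and 9 with a changed direction of Atp6v1f, and of the enzymes 4 and 7 with a changed direction of Tph2.

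**Figure D3:**
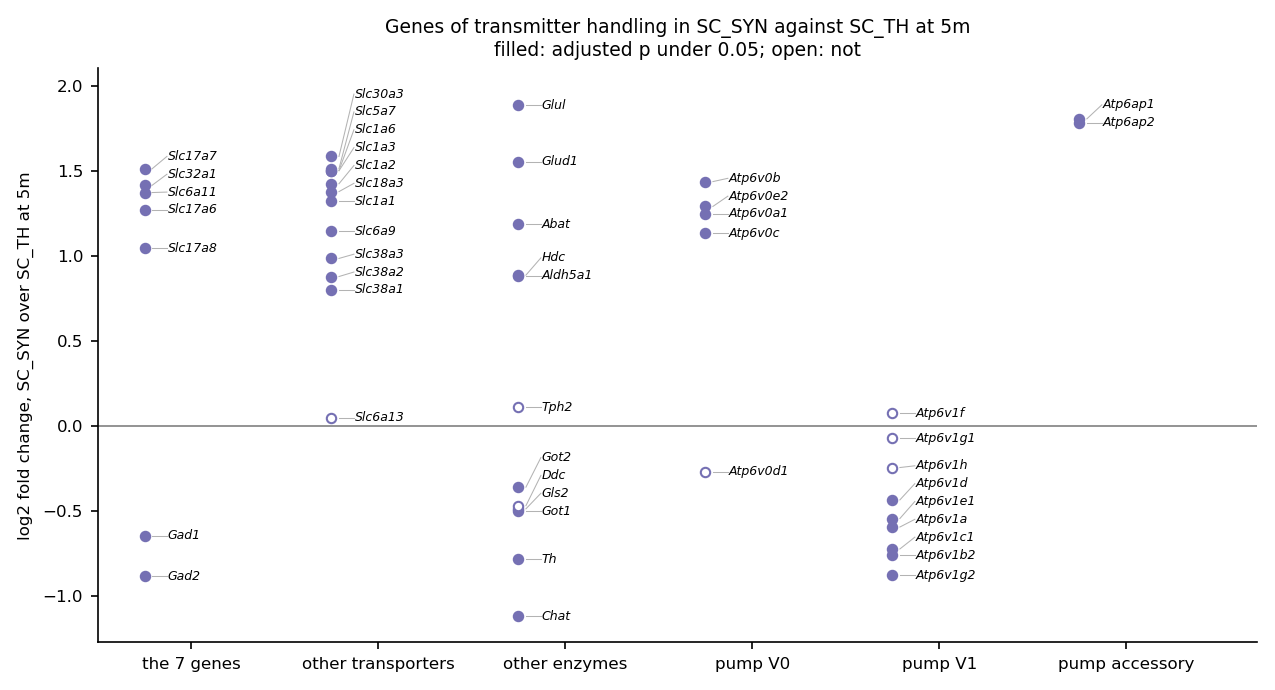
Log2 fold change of SC_SYN over SC_TH at 5m (vertical axis) of the 7 genes and of the tested genes of the 4 lists that are reported by name, in columns by kind of protein; each point is 1 gene, filled where the adjusted p was under 0.05. Transporters, V0 and accessory subunits lie mostly above 0, V1 subunits lie mostly below, enzymes lie on both sides, and Gad1 and Gad2 lie at the level of the falling enzymes.

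Markers of cell types moved between the compartments too. All 9 astrocyte markers were higher in SC_SYN at each age, and their summed level was 4173 to 5930.0 CPM in SC_SYN and 1507 to 1751 CPM in SC_TH. Slc6a11, itself an astrocyte gene, moved with them. Of 10 interneuron markers, 4 were higher and 6 lower in SC_SYN at 5m, the higher ones being the secreted peptides and proteins Sst (1.72), Vip (1.14), Npy (1.45) and Nxph1 (0.84). Pvalb (-0.62), a cytosolic calcium buffer, and the transcription factor genes Lhx6, Dlx1, Dlx2 and Dlx5 were among the lower ones. Of 10 markers of cortical excitatory neurons, 1 was higher and 7 lower, Camk2a (1.45) being the higher one. Nuclear RNAs were lower, 0 of 7 higher and 7 lower, and so were endothelial markers, 0 higher and 5 lower of 6, while all 6 microglia markers and 5 of 6 oligodendrocyte markers were higher. Under library size, the calls were 9 and 0 for astrocytes, 3 and 6 for interneurons (Nxph1 no longer passed), 1 and 9 for excitatory neurons, 5 and 0 for microglia, 2 and 1 for oligodendrocytes, 0 and 6 for endothelium and 0 and 7 for nuclear RNAs. No list had a marker with a mean of 0 in any group. As a check of the tissue, the 10 cortical excitatory markers summed to 2862 to 3858 CPM in input_TH, beside 515 to 915 CPM for 8 markers of striatal projection neurons and 36.9 to 80.2 CPM for 8 of thalamus. The 10 interneuron markers summed to 219 to 323 CPM there, below the striatal ones. These sums are over different genes and give no shares of cells. The part of striatal tissue in the levels of the GABA genes was not tested. Between 3w and 5m, all 6 oligodendrocyte markers were lower at 5m in every fraction, with median log2 fold changes of -1.44 in input_SYN, -1.37 in input_TH and -1.24 in SC_SYN, and a smaller one in SC_TH. The part of these shifts in the values of the 7 genes was not tested.

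The ribosome pellet was then set against the input of the same compartment. This asks whether a transcript has a larger share of the pellet than of the input. In TH most of the genes did. At 5m and at 18m all 7 were higher in SC_TH than in input_TH, and at 3w 4 were, beside 26.1%, 29.9% and 31.3% of 18416 genes called higher at 3w, 5m and 18m. The nuclear RNAs summed to means of 19384, 19135 and 17577 CPM in input_TH at 3w, 5m and 18m. In SC_TH they summed to 12514, 9420 and 5823 CPM, and their part in the values of these genes was not tested. Slc32a1 had the largest difference at 5m, with 114, 91.2, 112 and 119.8 CPM in SC_TH and 49.3, 48.3, 54.3 and 51.9 CPM in input_TH (log2 fold change 1.11 ± 0.094 (SE), adjusted p = 1.31e-10). Slc17a7 was higher by 0.45 ± 0.070 at 3w, 0.71 ± 0.070 at 5m and 0.47 ± 0.070 at 18m, and Slc17a6 by 0.92 ± 0.14 at 3w, 0.68 ± 0.13 at 5m and 0.86 ± 0.13 at 18m (SE, log2). Gad1 was higher by 0.47 ± 0.083 at 5m and 0.63 ± 0.082 at 18m, while at 3w its 177, 177, 187 and 168 CPM overlapped the 175, 166, 172 and 157 CPM of the input (adjusted p = 0.337). Slc6a11 likewise passed at 5m (0.72) and 18m (0.68) and had 0.15 at 3w (adjusted p = 0.265). The call of Gad2 at 3w (0.24, adjusted p = 0.0267) was lost without mouse 188 (adjusted p = 0.120) or 189 (adjusted p = 0.144), and those of Slc17a8 without mouse 192 at 5m (adjusted p = 0.0615) and without mouse 195 (adjusted p = 0.0664) or 198 (adjusted p = 0.0674) at 18m.

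In SYN few of the genes differed between pellet and input by the test. At 3w and at 5m, 0 of 7 genes passed with edgeR, beside 18.5% and 20.0% of 14301 genes called in either direction. Of the 7, 0 had an unadjusted p under 0.05 and DESeq2 called 0. Over all genes, 4578 and 4768 had an unadjusted p under 0.05, and DESeq2 called 2821 and 3101. At 18m, where 12.6% of genes were called, Slc17a7 alone passed. Its libraries measured 2307, 2839, 2771 and 2480.4 CPM in SC_SYN and 3160.0, 3595, 3049.6 and 3618 CPM in input_SYN, all lower in the pellet (log2 fold change -0.37 ± 0.10 (SE), adjusted p = 0.0114). With a GC and length trend removed it also passed at 5m (-0.31, adjusted p = 0.0143). Over all ages it was lower in the pellet in 11 of 12 mice. The call was lost without mouse 198 (log2 fold change -0.33, adjusted p = 0.0568), with no filter on low counts (adjusted p = 0.0867) and in a fit of these groups alone (adjusted p = 0.0530). Slc32a1 had log2 fold changes of -0.032, 0.17 and -0.15 at 3w, 5m and 18m, and its 95% interval at 5m of -0.19 to 0.52 lay below the 0.91 to 1.30 in TH at the same age. The difference between SYN and TH in this respect was not tested.

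**Figure D4:**
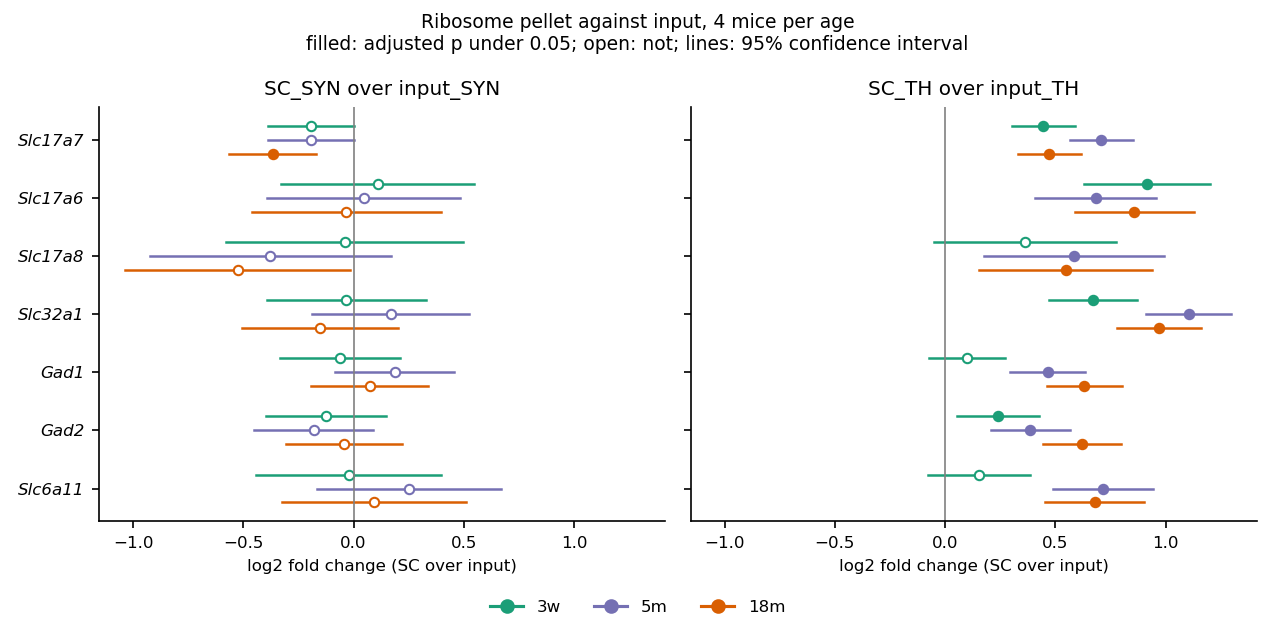
Log2 fold change of the ribosome pellet over input (horizontal axis) in SYN (left) and TH (right), by gene and age; points are edgeR estimates from 4 mice per age, lines 95% confidence intervals, filled points passed an adjusted p of 0.05. In TH, 18 of 21 points are filled, all right of 0, and in SYN only Slc17a7 at 18m, at -0.37, is filled.

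Whether pellet over input changed with age was tested as an interaction. In SYN, 0 of 7 genes passed at either step, with 0 unadjusted p under 0.05 among them and 0 calls by DESeq2. The background was 0% and 0% of 14301 genes, of which 473 and 393 had an unadjusted p under 0.05 and DESeq2 called 0 and 0. In TH, 0 of 7 passed with edgeR from 3w to 5m, beside a background of 2.33%. There were 4 unadjusted p under 0.05 and 3 calls by DESeq2 (Slc6a11, Slc32a1 and Gad1). Of all 18416 genes, 4027 had an unadjusted p under 0.05 and DESeq2 called 1175. Slc6a11 had the largest change, 0.56 ± 0.16 (SE), adjusted p = 0.0518, and passed with the mouse as a block (0.55, adjusted p = 0.0183). Slc32a1 had 0.43 ± 0.13 (SE), adjusted p = 0.0665, and passed with the block as well (0.43, adjusted p = 0.0411). Gad1 had 0.37 ± 0.12 (SE), adjusted p = 0.0758. Slc6a11 and Slc32a1 passed without mouse 189, 192 or 195, with adjusted p of 0.0237 to 0.0461, and Gad1 without mouse 192 (0.0172). From 5m to 18m 0 of 7 passed in TH, beside 1.78% of all genes. Of the 7, 1 had an unadjusted p under 0.05 and DESeq2 called 0, against 3137 and 752 of all genes. SC_TH of 3w was the shallowest of the SC_TH groups.

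Age was then compared within each fraction, from 3w to 5m and from 5m to 18m. Both steps share the 5m libraries, so their values are given side by side. In SC_SYN, 0 of 7 genes passed at either step with edgeR, beside a background of 8.05% and 0.0140% of 14240 genes. At the first step 2 genes had an unadjusted p under 0.05 and DESeq2 called 0, and at the second 2 and 1. Over all genes, 3723 and 2474 had an unadjusted p under 0.05 at these steps, and DESeq2 called 1767 and 322. Gad2 was the member that DESeq2 called. It measured 64.0, 68.5, 69.3 and 88.8 CPM at 5m and 108, 104, 98.4 and 102 CPM at 18m, with every 18m library above every 5m library (log2 fold change 0.54, 95% interval 0.28 to 0.80, edgeR adjusted p = 0.155, DESeq2 adjusted p = 0.00598). Slc17a7 was at 3773, 3096, 3538 and 3140.0 CPM and 2307, 2839, 2771 and 2480.4 CPM, without overlap in the other direction (log2 fold change -0.35, 95% interval -0.61 to -0.094, adjusted p = 0.212). Slc32a1 had a log2 fold change of 0.45 from 3w to 5m (adjusted p = 0.126), which passed without mouse 187 (0.62, adjusted p = 0.0415), and -0.34 from 5m to 18m (adjusted p = 0.334). With all 48 libraries in one fit, 4 of these changes passed, namely Gad2 (0.50, adjusted p = 0.00427) and Slc17a7 (-0.38, adjusted p = 0.00334) from 5m to 18m, and Slc32a1 (0.50, adjusted p = 0.0140) and Slc17a8 (-0.59, adjusted p = 0.0456) from 3w to 5m. With a GC and length trend removed, Slc17a7 passed from 3w to 5m (-0.44, adjusted p = 0.0166). The 95% intervals of the other 5 genes included 0 at the second step, and that of Slc17a8, -0.59 to 0.40, was the widest.

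In SC_TH, Gad1 and Slc32a1 rose from 3w to 5m. Gad1 measured 177, 177, 187 and 168 CPM at 3w and 288, 199.8, 229.8 and 269.7 CPM at 5m, without overlap (log2 fold change 0.48 ± 0.10 (SE), adjusted p = 0.00395). Slc32a1 measured 91.9, 77.0, 84.9 and 74.6 CPM and 114, 91.2, 112 and 119.8 CPM, higher at 5m in 15 of 16 pairs of libraries (log2 fold change 0.41 ± 0.10 (SE), adjusted p = 0.00918). The Slc32a1 call was lost with a GC and length trend removed (adjusted p = 0.159). These were 2 of 7 genes, beside 17.9% of 16427 genes called. The nuclear RNAs summed to means of 12514 CPM in SC_TH at 3w, 9420 CPM at 5m and 5823 CPM at 18m. Their part in the changes with age was not tested. Gad2 had 0.20 (adjusted p = 0.103) and passed without mouse 192 (0.24, adjusted p = 0.0487). From 5m to 18m 0 of 7 passed with edgeR, beside 2.17% of genes, with 2 unadjusted p under 0.05 and 1 call by DESeq2, Gad1. Over all genes, 2878 had an unadjusted p under 0.05 at this step and DESeq2 called 533. Gad1 reached 286, 305, 331 and 329 CPM at 18m (log2 fold change 0.35 ± 0.10 (SE), adjusted p = 0.0685), and Gad2 156, 156, 166 and 165 CPM, above all 5m libraries (log2 fold change 0.25 ± 0.083 (SE), adjusted p = 0.128). Without mouse 191, a 5m animal, both passed (Gad1 0.44, adjusted p = 0.0165, and Gad2 0.31, adjusted p = 0.0399). The 3 VGLUTs had log2 fold changes of -0.40 to -0.13 from 3w to 5m in SC_TH, and none passed (smallest adjusted p = 0.182). With a GC and length trend removed, Slc17a7 passed as lower at 5m (-0.26, adjusted p = 0.0127).

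In input_TH, Slc17a7, Slc17a8 and Slc6a11 were lower at 5m than at 3w. Slc17a7 measured 886, 1049, 972 and 1022 CPM at 3w and 697, 765, 785 and 712 CPM at 5m (log2 fold change -0.41 ± 0.065 (SE), adjusted p = 0.000487). Slc6a11 measured 112, 99.0, 91.6 and 89.7 CPM and 80.0, 77.3, 76.4 and 78.3 CPM (log2 fold change -0.34 ± 0.078 (SE), adjusted p = 0.00895). Both were apart without overlap, as was Slc17a8, at 3.78, 2.93, 3.57 and 2.91 CPM and 1.82, 1.73, 2.61 and 2.24 CPM (log2 fold change -0.65 ± 0.17 (SE), adjusted p = 0.0191). These 3 calls stood beside 11.8% of 18078 genes called, and that of Slc17a8 was lost without mouse 187 (adjusted p = 0.0675), 189 (adjusted p = 0.0576) or 192 (adjusted p = 0.0625). The Slc17a8 call was also lost with DESeq2 (adjusted p = 0.0611), which called 2 of the 7 and 1972 of all genes. From 5m to 18m 3 genes were higher, beside 15.5% of genes called. DESeq2 called 3 of the 7 at this step and 2674 of all genes. Slc17a7 rose to 798, 959, 847 and 922 CPM (log2 fold change 0.25 ± 0.065 (SE), adjusted p = 0.0168), Slc32a1 rose from 49.3, 48.3, 54.3 and 51.9 to 58.0, 64.9, 57.1 and 72.3 CPM (log2 fold change 0.31 ± 0.081 (SE), adjusted p = 0.0184) and Gad1 rose from 164, 179, 189.9 and 184 to 195, 209, 205 and 207 CPM (log2 fold change 0.19 ± 0.053 (SE), adjusted p = 0.0263). These rises were close to the threshold. With all 48 libraries in one fit, the call of Slc17a7 from 3w to 5m was kept and the other 5 of the 6 calls in input_TH were lost, with adjusted p of 0.116 to 0.418. With a GC and length trend removed, the changes from 5m to 18m were 0.077 for Slc32a1 (adjusted p = 0.600) and 0.14 for Slc17a7 (adjusted p = 0.232), and both calls were lost. The Slc17a7 call was lost without mouse 194, 196 or 198 (adjusted p = 0.0522, 0.0637 and 0.0562), the Slc32a1 call without mouse 192, 196 or 198 (0.0529, 0.0528 and 0.0698), and the Gad1 call without mouse 191, 192, 196 or 198 (0.0637, 0.0602, 0.0708 and 0.0675). Slc6a11 had 0.19 (adjusted p = 0.115) and passed without mouse 195 (0.27, adjusted p = 0.0157).

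In input_SYN 0 of 7 genes passed with edgeR at either step, beside 3.22% and 0.139% of 12975 genes. Of the 7, 1 and 3 had an unadjusted p under 0.05, and DESeq2 called 0 and 0. Over all genes, 2197 and 1214 had an unadjusted p under 0.05, and DESeq2 called 603 and 64. Slc17a7 measured 4328, 4329, 4122 and 4242 CPM at 3w, 3851, 3840.3, 3855 and 3646 CPM at 5m and 3160.0, 3595, 3049.6 and 3618 CPM at 18m. Its libraries at each age lay below those of the age before, with log2 fold changes of -0.20 (adjusted p = 0.187) and -0.18 (adjusted p = 0.45). Gad2 was at 85.4, 64.0, 91.6 and 82.2 CPM at 5m and 121, 95.2, 104 and 104 CPM at 18m (log2 fold change 0.39, adjusted p = 0.356).

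**Figure D5:**
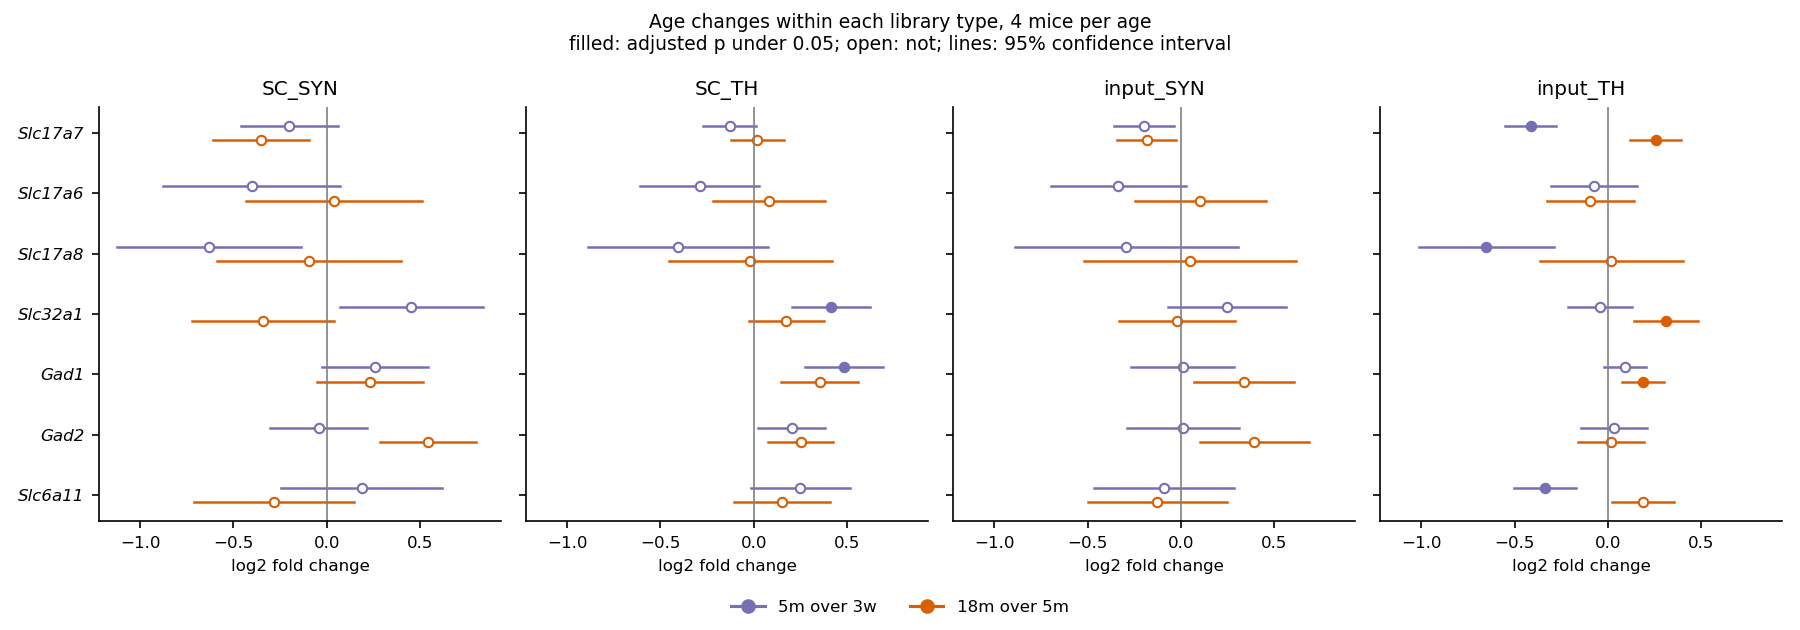
Log2 fold change between ages (horizontal axis) of each gene in the 4 fractions, for 5m over 3w and 18m over 5m; points are edgeR estimates from 4 mice per age, lines 95% confidence intervals, filled points passed an adjusted p of 0.05. Filled points are found only in SC_TH (Gad1 and Slc32a1) and input_TH, where the -0.65 of Slc17a8 is the largest, and none is filled in either SYN fraction.

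The difference between the compartments itself was also compared between ages. In the pellets, the SYN over TH difference of 0 of 7 genes changed with edgeR at either step, beside 0.0301% and 0% of 16630 genes. Unadjusted p under 0.05 were 0 and 2 of the 7 genes, and 1324 and 2855 of all genes. DESeq2 called 0 and 0 of the 7, and 55 and 272 of all. The differences from 5m to 18m were -0.38 for Slc17a7 (95% interval -0.65 to -0.11) and -0.52 for Slc32a1 (95% interval -0.96 to -0.085). In the input, 0 of 7 changed from 3w to 5m, beside 0.0224% of 17860 genes, with 1 unadjusted p under 0.05 and 0 calls by DESeq2. Over all genes, 1437 had an unadjusted p under 0.05 and DESeq2 called 32. From 5m to 18m Slc17a7 was the only one of the 7 that passed, changing by -0.43 ± 0.10 (SE), adjusted p = 0.0247, beside 2.42% of genes. Its excess in SYN was smaller at 18m, with a log2 fold change of 1.93 against 2.37 at 5m. The call was lost without any one of mice 191, 192, 193, 194, 196 or 197, with adjusted p of 0.0507 to 0.0787. With a GC and length trend removed the change was -0.23 (adjusted p = 0.465).

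Ratios of excitatory to inhibitory genes were compared between ages by an exact permutation over 70 assignments of 8 mice, whose smallest possible p is 0.0286. Of 88 tests 0 passed, with 16 at that smallest p and an adjusted p of 0.157, the lowest this design gave. A pass at 0.05 needed many more of the 88 tests at that smallest p. The 0 is therefore no sign of stable ratios. Slc17a7 over Slc32a1 in SC_SYN was 18.8 at 3w and 11.8 at 5m, and in SC_TH 16.1 and 11.1, lower at 5m in 16 of 16 pairs of libraries in SC_SYN. Slc17a7 over Gad1 in SC_SYN differed by -0.46 from 3w to 5m and by -0.56 from 5m to 18m on the log2 scale.

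Lastly, the genes whose levels were most like each member were listed from 10614 genes, by Pearson correlation of log2 CPM over 48 libraries. Fractions form separate clusters and the 4 libraries of a mouse share an animal, so these correlations are descriptions without a p. Over all libraries Slc17a7 was most like Tmem151a, Nlgn2 and Shisa4 (r of 0.993 to 0.994), Slc17a6 like Hacd3, Scn2a and Emc7 (up to 0.979), Slc32a1 like Wfs1, Kcna3 and Ctsb (up to 0.987) and Slc6a11 like Cd81, Clptm1 and Lrrtm1 (up to 0.985). Gad1 was most like Fbxo21, Ddx24 and Ncoa2 (up to 0.940) and Gad2 like Synj1, Pde4b and Qrich1 (up to 0.904). With the mean of each fraction removed, the leading genes were Cadm4, Slc8a2 and Syngr1 for Slc17a7 (up to 0.934), Atp2c1, Atp2b1 and Acsl3 for Slc17a6 (up to 0.832), Arnt2, Nmt1 and Ddx24 for Gad1 (up to 0.899) and Dnm3, Dach1 and Gnal for Gad2 (up to 0.833). They were Wfs1, Dner and Fam20c for Slc32a1 (up to 0.918). For Slc6a11 they were Agt, Slc7a10 and Abhd4 (up to 0.888).

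The members' own correlations changed between these scales as well. Over the 48 libraries Gad1 and Slc32a1 had r = -0.32, and with fraction means removed r = 0.70. Slc32a1 and Slc6a11 had r = 0.97 and 0.78. Slc17a7 and Gad2 had r = -0.64 and -0.65.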

How the data were processed

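RNA was measured in 48 libraries from the cortex of 12 mice, namely the ribosome pellet and input RNA of TH and SYN. The authors prepared directional, rRNA-depleted libraries with UMI adaptors, sequenced them single-end, mapped them with TopHat2 to GRCm38 and tallied reads by gene in featureCounts with strand ignored. What the authors deposited are raw counts, not normalized, of 48526 genes. Use of the UMIs is not stated. GENCODE for GRCm38 held 48144 of the identifiers. Unmatched identifiers made up 0.0596% of counts.

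Differences were tested on counts with edgeR 4.0.16 in R 4.3.3 (TMM, filterByExpr, glmQLFit and glmQLFTest, Benjamini-Hochberg over all genes tested, threshold 0.05). Ages were compared within each fraction of 12 libraries, and SYN with TH or pellet with input in fits of 24 libraries. CPM are TMM-scaled. Ratios of 2 members, with 0.5 added to each count, were compared by exact permutation. Tests were checked on simulated counts. The members, the lists of 121 pathway and marker genes and the tests were chosen with earlier results of these data known. Besides the members, named genes were the 3 most correlated with each member, up to 2 per direction from each pathway list by size of the called change, and any gene overlapping a member. Some genes this rule named are not reported here. Interneuron and excitatory marker genes and ratios named beyond that were chosen after their values were seen.

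Alternatives were DESeq2 1.42.0, library size, no filter, a minimum of 10 counts per library, a fit of the compared groups alone, a single fit of 48 libraries, mitochondrial genes left out, a GC and length trend removed, thinning to the smallest library, the mouse as a block, and each of 12 mice left out. The libraries of a mouse share its number because they come from one animal. Same-mouse deviations between fractions correlated with medians of 0.0582 to 0.174 (range -0.602 to 0.680). Replicates differed by more than sampling noise in all 72 pairs. Beyond animals, no batch is given in the labels. The p-values of the main edgeR fits measure the spread between libraries of a group, each from a different mouse. They do not use the pairing of libraries by mouse, which the sign-flip test of SYN against TH ratios does.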

Additional observations from a re-analysis of the deposited data

Results flagged for a closer look

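Slc17a7 in input_SYN at 5m had 1 library far from the others. Mouse 194 measured 3646 CPM while the others lay between 3840.3 and 3855 CPM, so that the gap took up 0.930 of the whole range. The library still lay far above every input_TH library of that age, and the group's range was narrow.

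Slc17a6 in SC_TH at 3w stood apart in mouse 188, at 45.8 CPM against 26.0 to 28.4 CPM in the others, a gap of 0.882 of the range. The same mouse had the highest Slc17a6 of its age in SC_SYN, at 123 CPM. The summed level of 8 thalamic marker genes in SC_TH at 3w was 103 CPM in this mouse and 64.6, 64.8 and 36.3 CPM in the other 3, and its part in the Slc17a6 value was not tested. Of 84 groups examined for such libraries 2 had one, where chance gives 4.2.

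The SYN over TH difference of Slc17a7 in the input differed between 5m and 18m, by -0.43 on the log2 scale in the interaction term of edgeR (adjusted p = 0.0247), and by -0.23 with a GC and length trend removed (adjusted p = 0.465). In the pellets the same term was -0.38 and did not pass (adjusted p = 0.177).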

How the results depend on the processing

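Of the recomputed values, 4563 kept their direction and their side of the threshold, 59 lost a call, 39 gained one and 2 reversed. Counts of calls for SYN against TH (21 of 21 in SC, 20 of 21 in the input) and for the pellet against the input in TH (18 of 21) stayed within 1.5 times under all the alternatives. So did the 13 calls of ratios between SYN and TH, although ratios within a library do not depend on most of these settings. The 0 calls of ratios between ages could hardly change, since the smallest possible permutation p is 0.0286 over 88 tests. Both reversals were Gad2 in the input at 18m, SYN against TH, at -0.56 under library size and -0.28 with at least 10 counts in every library. Of 28 tests from 3w to 5m, 5 passed, and 8 with the GC and length trend removed. Of 28 tests from 5m to 18m, 3 passed, 5 with DESeq2, 1 with the GC and length trend removed and 1 in thinned libraries. The age change of SYN over TH had 1 call, and 0 without a filter, with all 48 libraries in one fit or with the GC and length trend removed. The pellet against the input in SYN had 1 call, 0 without a filter or with only the groups compared, and 2 with the GC and length trend removed. The age change of the pellet over the input had 0 calls, 3 with DESeq2, 3 without a filter, 1 with at least 10 counts, 2 without mitochondrial genes, 1 in thinned libraries and 2 with the mouse as a replicate block. The block changed no other call. The cause of these changes was not tested.

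With each mouse left out, calls ranged from 4 to 5 of 28 from 3w to 5m, 0 to 4 from 5m to 18m, 21 to 21 and 19 to 20 for SYN against TH in SC and input, 0 to 1 for their age change, 0 to 1 and 17 to 18 for the pellet against the input in SYN and TH, 0 to 3 for its age change and 13 to 14 for ratios. With the GC and length trend removed, Gad1 in the input lost its call at 3w (-0.19, adjusted p = 0.104) and 18m (-0.21, adjusted p = 0.0501), and Gad2 at 3w (-0.090, adjusted p = 0.464) and 5m (-0.063, adjusted p = 0.603). Slc32a1 in SC_TH from 3w to 5m lost its call there (0.18, adjusted p = 0.159) and in one fit of all 48 libraries (0.41, adjusted p = 0.0711). Library size moved the share of calls that were higher by over 10 percentage points in input_TH from 3w to 5m (40.3% to 59.2%) and from 5m to 18m (52.7% to 32.6%), in SC_SYN from 3w to 5m (50.0% to 39.2%), in the pellet against the input of SYN at 3w (48.8% to 59.4%), in the age change of the pellet over the input in TH (43.1% to 22.8% and 34.1% to 52.9%) and in that of SYN over TH in the input from 5m to 18m (41.7% to 67.9%). Slc17a8 had the fewest counts, at 7 to 95 per library. In thinned libraries the calls of Slc17a8 in SC at 18m (0.64, adjusted p = 0.128), of Gad2 in SC_TH against input_TH at 3w (0.13, adjusted p = 0.345), and of Gad1 (0.13, adjusted p = 0.310) and Slc32a1 (0.27, adjusted p = 0.168) in input_TH from 5m to 18m were lost.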
